A study of Bos taurus with 4 samples.

Results

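The nicotinic acetylcholine receptor of skeletal muscle was followed through the genes of its 5 subunits: CHRNA1 (alpha), CHRNB1 (beta), CHRND (delta), CHRNG (gamma) and CHRNE (epsilon). The members were the probes for bovine transcripts whose RefSeq accession belongs to one of these genes, with the brightest probe taken for each gene. All 5 members were found among the 7788 named genes of the array, each with 1 probe printed in 2 spots (A_73_105112 for CHRNA1, A_73_101502 for CHRNB1, A_73_118648 for CHRND, A_73_119910 for CHRNG and A_73_107231 for CHRNE), and all 5 were among the 6376 named genes that passed a filter on dim probes. The 5 genes were chosen by their log2 ratios and detection flags in this contrast, so those values are a description, and nothing is read from a test of them.

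RNA came from the semitendinosus, a muscle of the hind leg, of 15-month-old bulls of a beef breed, Limousin (LIM), and of a dairy breed, Holstein-Friesian (HF). Each of 4 two-colour arrays carried RNA of 1 LIM bull in red (Cy5) and of 1 HF bull in green (Cy3), which gave 4 bulls per breed. No array had the dyes exchanged, and in every value below the breed and its dye cannot be told apart. In a piece of whole muscle, fewer cells of a type and less RNA per cell cannot be told apart either.

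The receptor is the ion channel that opens when a motor nerve releases acetylcholine onto a muscle fibre. It is a ring of subunits in which alpha, beta and delta are always used, while the remaining place is held by gamma in fetal muscle and by epsilon in adult, innervated muscle. In rodents, gamma is switched off and epsilon on as the nerve takes over the fibre, and genes for alpha, gamma and delta come back along the whole fibre when the nerve is cut. Adult transcription of the subunits is otherwise largely limited to the few nuclei beneath the synapse, which are a small part of a muscle sample.

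The arrays held 42990 spots for bovine transcripts, of which 32513 to 33527 exceeded the background clearly in LIM and 27102 to 28769 did so in HF, and none was saturated. Of 21475 probes, 15855 were kept because 1 of the channels was well above background on at least 3 arrays. A log2 ratio is the red over the green signal after normalization, so a positive one means more signal in the channel labelled LIM. This direction follows the dye labels. For 13 of the 13 genes that could be compared, it is opposite to the one the study's text gives. The study also reported its own direction by qPCR for the genes it checked, and lower myostatin protein in beef breeds by western blot. Why the directions differ was not tested, so each direction below is that of the channel labels. A level is the normalised log2 intensity of a probe in 1 channel, and levels of different probes are not set against each other, because probes differ in how brightly they bind.

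CHRNA1 encodes the subunit that binds acetylcholine. Its levels in LIM were 9.10, 8.50, 8.40 and 8.14 on arrays 1 to 4, against 9.99, 8.86, 9.36 and 8.75 in HF. LIM was below HF on each array, although the levels of the breeds overlapped across arrays. The log2 ratios were -0.88, -0.35, -0.95 and -0.61, with a mean of -0.70 ± 0.27 (SD, n = 4), which is 1.62-fold lower in LIM. Under median centring of the arrays in place of loess the mean was -0.24. Array 2 had the smallest difference and array 3 the largest.

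CHRNB1, the beta subunit, through which the receptor is tied to the scaffold protein rapsyn, was split between the arrays. Its levels in LIM were 9.83, 9.60, 9.70 and 9.26 on arrays 1 to 4, against 9.47, 10.02, 9.35 and 9.55 in HF. The ratios were 0.36, -0.42, 0.35 and -0.29, so LIM was above HF on arrays 1 and 3 and below it on arrays 2 and 4. The mean ratio was -0.0020 ± 0.42 (SD, n = 4). The duplicate spots of the probe differed by a median of 0.036 and by at most 0.13 in log2 ratio.

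CHRND encodes delta, which forms part of an acetylcholine binding site together with alpha. Its levels in LIM were 7.89, 7.84, 7.60 and 7.24 on arrays 1 to 4, against 8.40, 6.79, 8.21 and 7.45 in HF. LIM lay below HF on arrays 1, 3 and 4 and above it on array 2. The ratios were -0.52, 1.05, -0.61 and -0.21, with a mean of -0.073 ± 0.77 (SD, n = 4). By the size of this SD, CHRND was number 144 of the 6376 named genes. Without array 2, the mean was -0.45 ± 0.21 (SD, n = 3).

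The departure of array 2 lay in the HF channel. LIM levels of CHRND spanned 0.65, while HF levels spanned 1.62, and the HF level of array 2 was 0.66 below the lowest of the other HF bulls. The signals processed by the scanner software showed the same place: HF had 711, 67.0, 487 and 207 on arrays 1 to 4, while LIM had 431, 315, 264 and 165. Both spots of the probe gave a positive ratio on array 2 (1.27 and 0.82), and both channels were well above background there. The HF signal on that array was weak, with median signals of 51 and 49 over a local background of 32 and 26. With the processed signals the CHRND ratio on array 2 was 2.23, so its size moved with how background was handled.

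CHRNG, the fetal gamma subunit, stood above HF in LIM on each array. Its levels in LIM were 6.91, 7.69, 7.71 and 7.53 on arrays 1 to 4, against 6.42, 6.68, 6.79 and 6.61 in HF. Every LIM level was above every HF level, a separation that CHRNG alone among the 5 subunits had and that was found in 17.1% of the 6376 named genes. The ratios were 0.49, 1.01, 0.92 and 0.93, with a mean of 0.84 ± 0.24 (SD, n = 4), and array 1 gave the lowest. No fold is given, because HF was above background on 1 of 4 arrays.

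The CHRNG signal was weak. In the LIM channel, the spots had median signals of 116 to 281 and passed the scanner software's background test on 4 of 4 arrays. In the HF channel, the signals were 38 to 51 over a local background of 25 to 32, and the probe was well above background on 1 of 4 arrays, array 2. Of its HF spots on array 3, 1 of 2 passed. CHRNG therefore passed the filter through the LIM channel alone, and the size of its ratio moved with how background was handled. With the processed signals of the scanner software the mean ratio was 2.35 ± 0.15 (SD, n = 4), with 2.27, 2.18, 2.50 and 2.46 on arrays 1 to 4.

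Detection itself differed between the channels across the whole array. A probe seen on 4 arrays in LIM and on at most 1 in HF was no rarity, with 1767 of 21475 probes, whereas the opposite pattern was found for 1 probe. Those 1767 probes had a median log2 ratio of 0.050, and 4 of them, CHRNG included, reached the ratio of CHRNG. That place is only a description, because the ratios chose the members. It was not ranked with background handled in another way. The part of the dye in this detection pattern was not tested.

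CHRNE, the adult epsilon subunit, had levels in LIM of 9.58, 9.41, 10.20 and 9.55 on arrays 1 to 4, against 10.05, 9.90, 10.08 and 10.76 in HF. LIM was below HF on arrays 1, 2 and 4 and slightly above it on array 3, and the breeds overlapped. The ratios were -0.48, -0.48, 0.12 and -1.21, with a mean of -0.51 ± 0.54 (SD, n = 4), 1.42-fold lower in LIM. This direction turned when the arrays were only median-centred, which gave 0.065. Array 4 had the lowest ratio, where the HF bull had the highest epsilon level of all bulls.

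**Figure D1:**
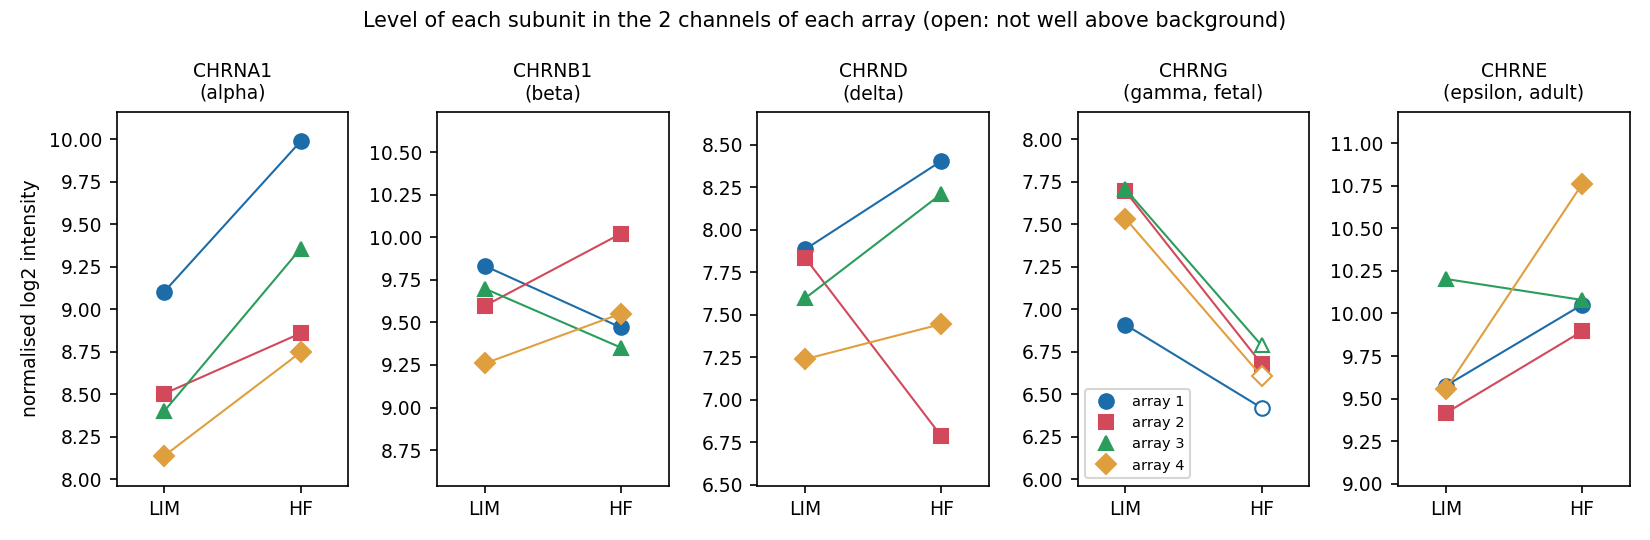
Normalised log2 intensity of each subunit in the LIM (left) and HF (right) channel of each array, with a line joining the bulls of 1 array; open symbols mark a channel that was not well above background, and each panel has its own axis because probes are not comparable. Every CHRNG level in LIM lies above every one in HF, whereas CHRND crosses on array 2 and CHRNE on array 3.

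The fetal and the adult subunit were then set against each other within each array, as the log2 ratio of CHRNG minus that of CHRNE. This difference was 0.96, 1.50, 0.80 and 2.13 on arrays 1 to 4, with a mean of 1.35 ± 0.60 (SD, n = 4), so it was positive on 4 of 4 arrays. Under median centring the mean was 0.90 and the lowest array gave 0.091. CHRNG passed the filter only through the channel in which it was higher, and with both channels required on 4 arrays the difference had no usable CHRNG value. It compares the breeds' ratios, and does not say which of the 2 transcripts was more abundant.

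The other pairs of subunits were compared in the same way, as a description, because the ratios chose the members. CHRNG passed the filter through LIM alone, and the size of its ratio moved with how background was handled. CHRNA1 minus CHRNG was negative on 4 of 4 arrays with a mean of -1.54 ± 0.24 (SD, n = 4), and CHRNB1 minus CHRNG was negative on 4 of 4 arrays with a mean of -0.84 ± 0.60. CHRND minus CHRNG averaged -0.91 ± 0.67 and was negative on 3 of 4 arrays, with array 2 the exception. Among the remaining pairs, CHRNA1 was below CHRND on 4 of 4 arrays (-0.63 ± 0.52) and CHRNB1 above CHRNE on 4 of 4 arrays (0.51 ± 0.43). CHRND and CHRNG are next to each other on the same chromosome, with 0 genes between them in the RefSeq annotation of the assembly ARS-UCD2.0, and in these arrays the neighbours had ratios of opposite sign on arrays 1, 3 and 4.

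**Figure D2:**
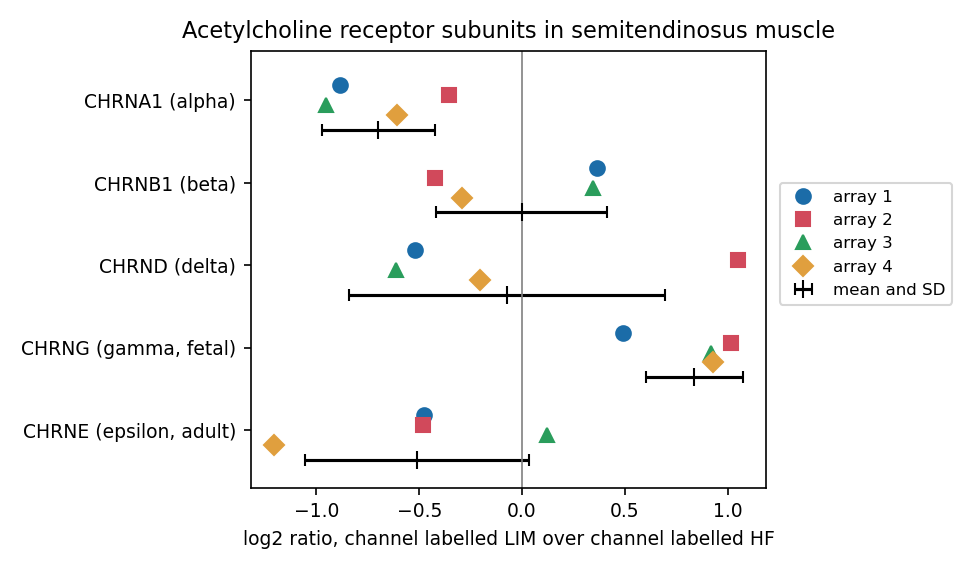
Log2 ratio of LIM over HF for each subunit on each of the 4 arrays (points), with the mean and SD. The CHRNG points lie between 0.49 and 1.01 and the CHRNA1 points between -0.95 and -0.35, while CHRNB1, CHRND and CHRNE have points on both sides of 0; under median centring the mean of CHRNE turns to 0.065.

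Across all 15855 probes kept, limma with Benjamini-Hochberg adjustment called 868 (5.47%) at an adjusted p under 0.05, with 470 higher (2.96%) and 398 lower (2.51%) in LIM. With 1 probe per named gene it called 378 of 6376 (5.93%), 177 higher (2.78%) and 201 lower (3.15%). Of the 5 subunits, 2 were among the called genes, CHRNG higher and CHRNA1 lower, and nothing is read from that count, as this contrast chose the members. The same 2 subunits had 1 sign on 4 of 4 arrays, as 36.2% of the named genes did. Without array 1, 2 or 4 the fit called 0 probes, and without array 3 it called 51. The median of the 5 mean ratios was -0.073, against 0.0029 over all named genes. The SDs of all 5 subunits, 0.24 for CHRNG, 0.27 for CHRNA1, 0.42 for CHRNB1, 0.54 for CHRNE and 0.77 for CHRND, were above the median SD of 0.21 over the named genes.

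Centring matters for signs near 0. Median centring in place of loess moved the median of all probes kept to 0.25, against 0.018 with loess, so a sign that turns under it is not by itself a change relative to other genes. Relative to that median, the ratios were -0.49 for CHRNA1, 0.29 for CHRNB1, -0.079 for CHRND, 0.71 for CHRNG and -0.19 for CHRNE. The order of the 5 subunits, with CHRNG at the top, then CHRNB1, CHRND and CHRNE, and CHRNA1 at the bottom, was thus the same with both ways of centring. It was not the same under every processing. CHRND was above CHRNB1 with the scanner software's processed signals (0.072 and 0.0097) and without array 1 (0.076 and -0.12) or array 3 (0.11 and -0.12). Without array 3, CHRNE (-0.72) was also below CHRNA1 (-0.62).

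**Figure D3:**
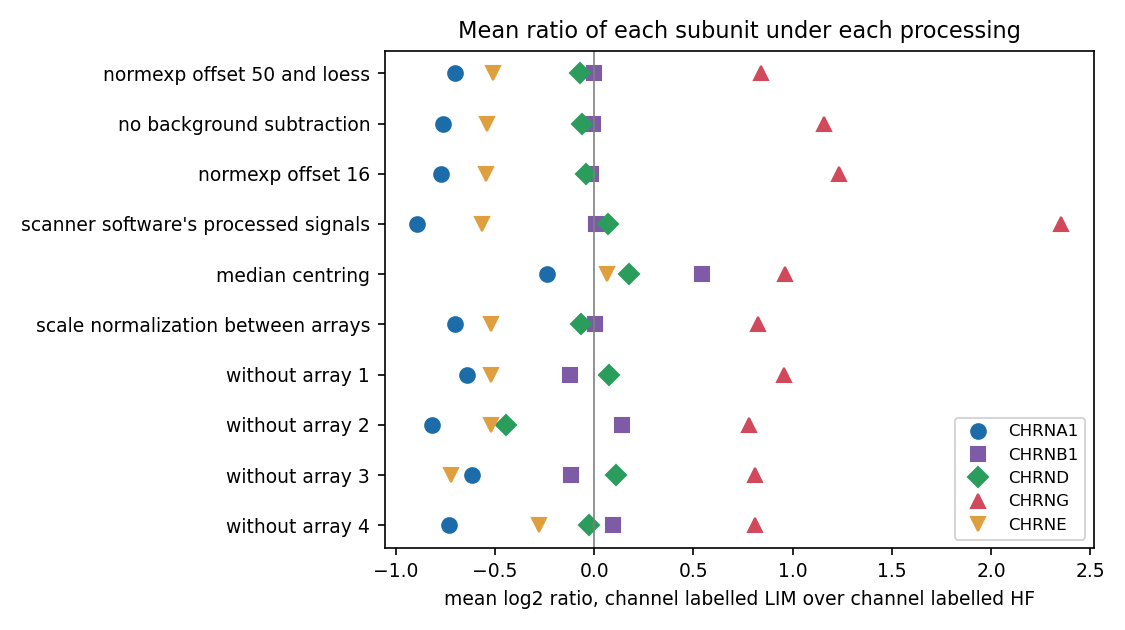
Mean log2 ratio of LIM over HF of each subunit under each way of processing the arrays, with loess and an offset of 50, the setting used in the text, in the top row and the means without 1 array in the lowest rows. CHRNG runs up to 2.35 with the scanner software's processed signals, and median centring moves CHRNB1 to 0.54 and CHRNE to 0.065.

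The genes whose ratios over the 4 arrays lay nearest to each subunit were found by Euclidean distance, as a description over 4 arrays. For CHRNG they were SCN4B, a beta subunit of voltage-gated sodium channels (distance 0.21), SLC25A39, a mitochondrial carrier (0.22), and SRPX (0.26). For CHRNE they included POU2F1, a transcription factor (0.32), and ANG, the ribonuclease angiogenin (0.37). CHRNA1 was nearest to TRAF3IP2 (0.20), an adaptor of interleukin signalling, ECI2 (0.22), an enzyme of fatty acid oxidation, and NFYA (0.23), a CCAAT-binding factor. CHRNB1 was nearest to GAS7 (0.22), the selenium carrier SELENOP (0.22) and TBRG1 (0.23), and CHRND to GATD3 (0.39), the vitamin B12 carrier TCN2 (0.45) and the nitric oxide synthase NOS2 (0.46). None of these was another subunit: the nearest subunits, CHRNB1 and CHRNE, were 1.26 apart, and the farthest, CHRNA1 and CHRNG, 3.1.

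Genes that build, place or respond with the receptor were taken from 9 lists. Of 122 genes in these lists other than the subunits, 61 had a matched probe and 55 a kept one. In the limma fit 0 of the 55 were higher and 1 was lower in LIM, or 1.82% beside 5.93% of all named genes. An unadjusted p under 0.05 was found for 18 of the 55 and for 4326 of the 15855 probes kept. The median ratio of the 55 was 0.012. A ratio of 1 sign on 4 of 4 arrays, given for some genes below, was found for 36.2% of the named genes. AGRN, LRP4, DOK7, RAPSN, COLQ, UTRN, SCN4A, HDAC4, RUNX1, GABPA and MYH8 were not analysed here.

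The gene that was lower was GADD45A, which is strongly induced in denervated muscle of mice. Its levels in LIM were 10.84, 10.96, 10.29 and 10.84 on arrays 1 to 4, against 11.65, 12.22, 12.00 and 11.42 in HF. All LIM bulls were below all HF bulls, and levels of the 2 channels did not overlap for 17.1% of the named genes. The ratio was -1.09 ± 0.20 (moderated SE, n = 4, limma adjusted p = 0.0474). The call did not stand under median centring (-0.46), when all dim probes were kept, or when any 1 of arrays 1 to 4 was left out (-1.26 to -0.88, limma adjusted p = 0.0872 at the lowest).

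The other 9 measured genes of the 10 responsive to denervation did not pass the test, and the list's median was 0.0074. TRIM63, a ubiquitin ligase of muscle atrophy, had a ratio of -1.07 ± 0.23 (SE; limma adjusted p = 0.0625), and ANKRD1, a stretch-responsive repeat protein, -1.96 ± 0.44 (limma adjusted p = 0.0674). Both ratios were negative on 4 of 4 arrays. Other genes of this list went the other way. MYOG, a myogenic factor described below, had 1.13 (limma adjusted p = 0.0995) and was positive on 4 of 4 arrays. CDKN1A was at 0.39 and HDAC5 at 0.38. NCAM1, the adhesion molecule that spreads over denervated fibres, had -0.024 ± 0.066 (limma adjusted p = 0.848).

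Myogenic transcription factors bind E-boxes of subunit genes, and 0 of the 6 measured passed the test, with a median of 0.31. Of the 6, 5 had an unadjusted p under 0.05, with signs in both directions, beside 4326 of the 15855 probes kept. MYOG, myogenin, had levels of 9.83 to 10.59 in LIM, against 8.56 to 9.61 in HF. All LIM levels were above all HF levels, and levels of the 2 channels did not overlap for 17.1% of the named genes. The ratios were 1.74, 1.94, 0.39 and 0.45, with a mean of 1.13 ± 0.32 (SE, limma adjusted p = 0.0995). MYOD1 had ratios of 1.14, 2.11, -0.41 and 0.85 with a mean of 0.92 ± 0.40 (limma adjusted p = 0.211), so array 3 went the other way. For both factors arrays 1 and 2 gave the highest ratios.

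MYF6, also called MRF4, is the factor of this family that prevails in adult muscle, and it was chosen for description after its values were seen. Its ratios were -0.90, -1.39, 0.25 and -2.0 on arrays 1 to 4, with a mean of -1.01 ± 0.37 (SE; limma adjusted p = 0.157). It was lowest on array 4 and above 0 on array 3. MYF5 was not well above background in HF on any array. With loess, its levels were 6.51 in LIM and 6.29 in HF (limma adjusted p = 0.117). The LIM level was 1.14-fold above the bound for HF, which takes no account of the spread between arrays. The bound depends on the processing. The ratio of MYF5 turned to -0.040 under median centring and was 0.99 with processed signals (limma adjusted p = 0.0438). TCF3, an E-protein partner of these factors, had -0.17 ± 0.058 (limma adjusted p = 0.137). The remaining gene of the list, MEF2A, had 0.40 ± 0.15 (limma adjusted p = 0.160) and was positive on 4 of 4 arrays.

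**Figure D4:**
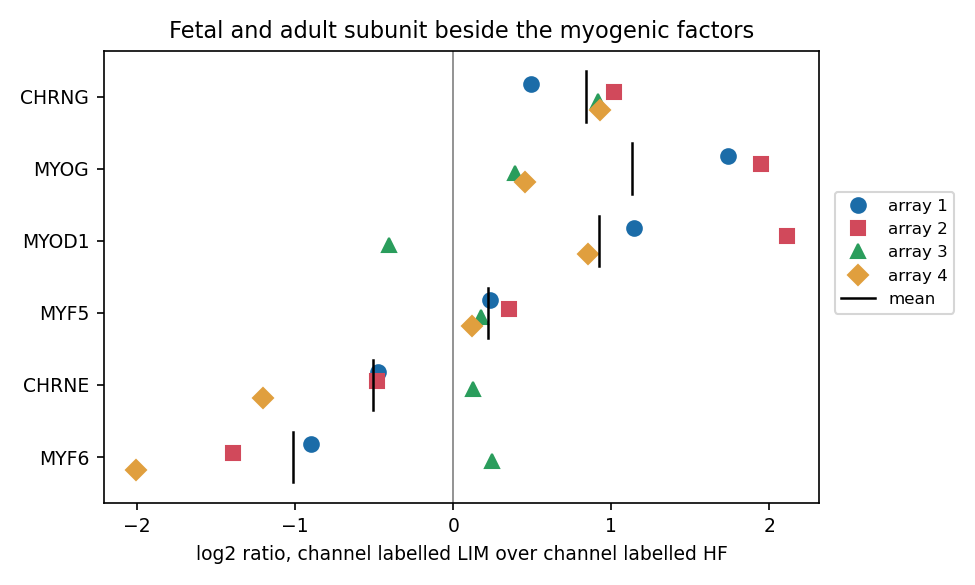
Log2 ratio of LIM over HF on arrays 1 to 4 for the subunits CHRNG and CHRNE and the myogenic factors MYOG, MYOD1, MYF5 and MYF6, with a bar at each mean. The CHRNG points lie between 0.49 and 1.01, and MYOG is highest on array 2 at 1.94; MYF6 was chosen after its values were seen.

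In the clustering pathway, by which agrin from the nerve gathers receptors, 0 of 8 measured genes passed the test, with a median of 0.013. MUSK, the receptor kinase at its centre, was not well above background in HF on any array, and its level was 6.47 in LIM and 6.46 in HF (limma adjusted p = 0.981). FYN, a kinase of the Src family, had -0.33 ± 0.11, CRK, an adaptor that binds DOK7, -0.14 ± 0.070, and CTTN, the actin regulator cortactin, 0.25 ± 0.16 (limma adjusted p = 0.135, 0.270 and 0.391).

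Among genes of the endplate membrane and basal lamina, 0 of 7 passed the test, with a median of 0.021. NID2, a nidogen that is concentrated in synaptic basal lamina in mice, had a ratio of 0.72 ± 0.17 (SE; limma adjusted p = 0.0749) and was positive on 4 of 4 arrays. DTNB, a dystrobrevin of the dystrophin complex, had a ratio of -0.20 ± 0.086 (limma adjusted p = 0.206), which turned positive under median centring. The probe for acetylcholinesterase, ACHE, was well above background on 1 array in LIM and on 0 in HF and was not kept.

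Synapse-specific transcription, driven by neuregulin and Ets factors, was measured by 3 genes, of which 0 passed the test, with a median of -0.065. GABPB1, the partner of the Ets factor GABPA, had -0.25 ± 0.11, ERBB3, a neuregulin receptor, 0.10 ± 0.063, and the Ets factor ETV5 -0.065 ± 0.12 (limma adjusted p = 0.219, 0.362 and 0.776). Their signs turned with median centring for ERBB3 and ETV5.

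Of 6 genes for assembly and turnover of the receptor, 0 passed the test. The median of -0.21 and all 6 ratios lay below 0. The chaperones CLU (-0.49 ± 0.12; limma adjusted p = 0.0822), HSPA5 (-0.34 ± 0.094; 0.0997) and PDIA3 (-0.28 ± 0.10; 0.158) were at 0.18, 0.31 and 0.22 under median centring, where the median of all probes kept was 0.25. These are general chaperones that serve many membrane and secreted proteins.

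Fetal and regeneration genes, which are active at the stage when gamma is used, had 0 of 8 past the test and a median of 0.23. DLK1, a membrane protein of developing muscle, had 0.64 ± 0.14 (SE; limma adjusted p = 0.0666), the imprinted RNA H19 0.27 ± 0.062 (0.0722) and MYL4, the embryonic light chain, 0.36 ± 0.11 (0.107), each positive on 4 of 4 arrays. MYH3, embryonic myosin, had ratios of 1.32, -0.86, -0.39 and 0.68 on arrays 1 to 4, with a mean of 0.19 ± 0.38 (limma adjusted p = 0.788). IGF2 went the other way, at -0.42 and negative on 3 of 4 arrays, and CDH15 was at -0.025. TNNT2 was at 0.19 and ACTC1 at 0.58, with -1.44 on array 2.

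Ion channels and partners that carry the signal onward from the receptor had 0 of 6 past the test and a median of -0.064. KCNJ12, an inward rectifier, had 0.27 ± 0.063, the chloride channel CLCN1 -0.20 ± 0.087 and STAC3, a partner of the calcium channel, -0.31 ± 0.17 (limma adjusted p = 0.0750, 0.222 and 0.318), and CLCN1 and STAC3 turned positive under median centring. Neuronal receptor subunits were near background. CHRNA2, CHRNA5, CHRNA9 and CHRNB4 were not well above background on any array, and of the 3 kept, 0 passed the test, with a median of 0.098. With loess, CHRNA4 had levels of 6.34 in LIM and 6.22 in HF (limma adjusted p = 0.276). Its LIM level was 1.03-fold above the bound for HF. CHRNA3 had a ratio of 0.098 ± 0.087 (0.520) and CHRNA7 levels of 6.22 in LIM and 6.18 in HF (0.682). All 3 ratios turned negative under median centring, so the bound depends on the processing. With the scanner software's processed signals the ratio of CHRNA4 was 1.27 (limma adjusted p = 0.0124).

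**Figure D5:**
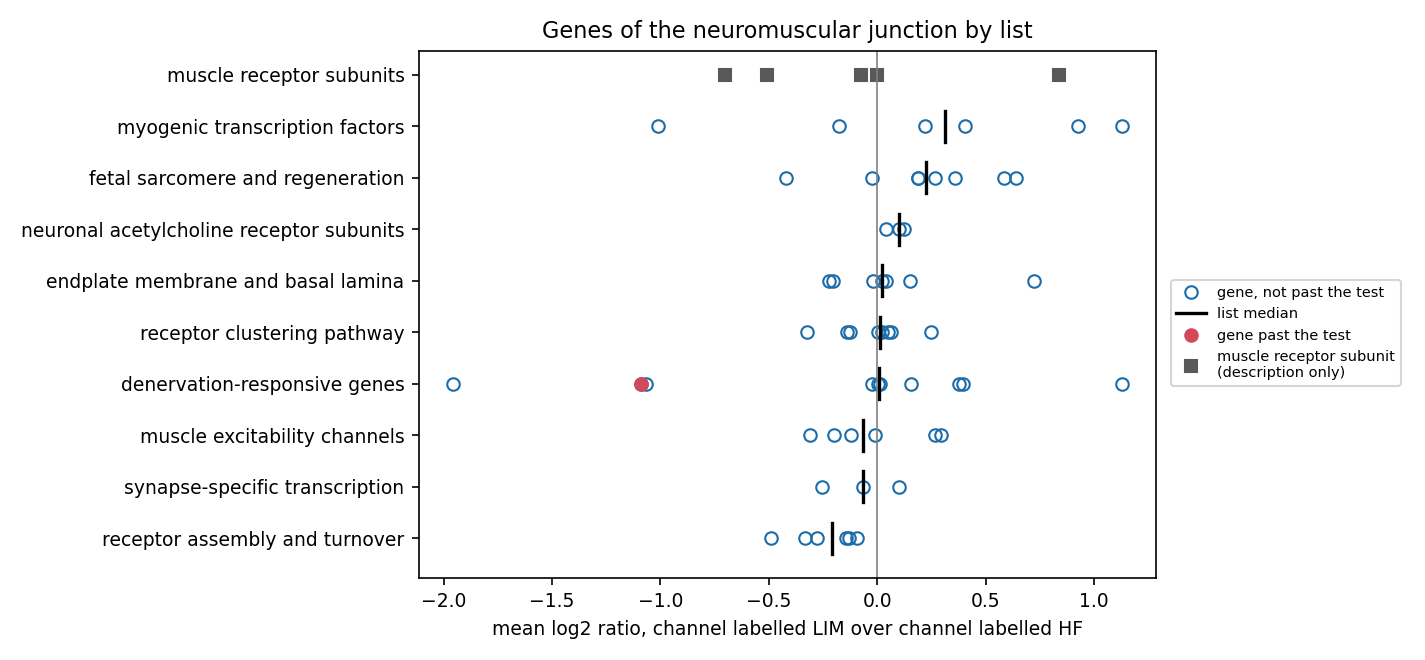
Mean log2 ratio of LIM over HF of each measured gene in the 9 lists (circles), with the list medians (bars) and the 5 muscle receptor subunits in the top row (squares, description only). The filled circle is GADD45A at -1.09, the 1 gene past the limma test, and the list medians run between -0.21 and 0.31; several ratios near 0 turn sign under median centring.

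Markers of the cells around the synapse were read beside the subunits, and their part in the subunit values was not tested. Of 10 markers of muscle fibres 8 were kept, each well above background in both channels on 4 of 4 arrays. Schwann cells, which cap the nerve terminal, had 6 of 10 markers kept, 0 past the limma test and a median of -0.14, with a summed intensity of 1858 to 2251 in LIM and 1775 to 5219 in HF. PMP22, a myelin protein, gave -1.97, -2.28, 0.20 and -1.23 on arrays 1 to 4. Motor axons had 2 of 11 markers kept (GAP43 at 0.21 and UCHL1 at -0.11, 0 past the test), with sums of 1592 to 1912 in LIM and 1245 to 1833 in HF, and STMN2 and SLC5A7 were not well above background on any array. Satellite cells had 2 of 7 kept, with sums of 217 to 296 in LIM and 221 to 333 in HF, and 0 past the test.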

How the data were processed

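Per the file headers, the authors quantified the arrays with Feature Extraction 10.7.3.1. As deposited, intensity values give each spot's median brightness and local background per dye, not normalized, beside processed signals from which the software had removed background and dye bias. The log10 ratios the authors deposited divide processed Cy5 by Cy3. Those of the series value table were identical, with column medians of 0.

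Median signals were corrected with normexp (offset 50) and normalized by loess within arrays, with control spots at weight 0 and the 5 to 10 non-uniform spots per array left out. Spots of a probe were averaged. A probe was kept where either channel was well above background on at least 3 arrays. Levels were read per channel after loess and Aquantile. Mean log2 ratios were tested against 0 (two-sided) with limma 3.58.1 in R 4.3.3, with Benjamini-Hochberg adjustment and a threshold of 0.05, and the fit was tested on simulated data. Each array paired 1 bull of each breed, and ratios correlated between arrays with r of 0.40 to 0.60 across probes, which are not independent replicates. The offset of 50 pulls ratios of dim probes such as CHRNG towards 0. The 4 arrays limit the precision of every mean.

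The bound for HF is a mean over arrays. On each array it takes the higher of the HF level and the lowest level of probes well above background in HF. Some probes not well above background lay over that lowest level, as MUSK did, and the spread between arrays does not enter. The bound therefore does not give a least fold.

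Probes were named by matching accessions to a RefSeq table of ARS-UCD2.0 (8297 of 21475 probes). Coordinates are left out, since the array was designed on another build. The members, lists and alternatives were chosen with earlier results of these data known. Named genes are the members, the called genes of each list or up to 3 by smallest unadjusted p, a set of core synapse genes wherever a probe was kept, and the 3 genes nearest to each member, of which some are not reported here. Alternatives were the background correction, offset, processed signals, series value table, centring, scaling, dim-probe filter, mean of all probes, other tests and leaving out each array.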

Additional observations from a re-analysis of the deposited data

How the results depend on the processing

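Median centring moved CHRNA1 to -0.24, CHRNB1 to 0.54 and CHRNE to 0.065. CHRNG was 1.16 without background subtraction, 1.23 with an offset of 16 and 2.35 with processed signals or the series value table, which gave CHRNG minus CHRNE as 2.92. CHRNG had no value when both channels had to pass on all 4 arrays. Leaving out each array in turn gave -0.82 to -0.62 for CHRNA1, -0.12 to 0.14 for CHRNB1, -0.45 to 0.11 for CHRND, -0.72 to -0.28 for CHRNE, 0.78 to 0.95 for CHRNG and 1.09 to 1.53 for CHRNG minus CHRNE.

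The 868 probes past the test became 1336 with processed signals, 1347 with the series value table, 3800 with median centring (3525 higher and 275 lower, against 470 and 398), 1308 with an intensity trend and robust prior, 1479 by the methods' t-test unadjusted, with 1.3-fold as the least change, and 0 after Benjamini-Hochberg (3470 at an unadjusted p under 0.05). Leaving out an array gave 0 to 51 probes by limma, with 51 without array 3 and 0 without array 1, 2 or 4 (3184 to 3911 at an unadjusted p under 0.05). The cause was not tested, other than that these fits hold fewer samples.

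The 1 gene past the test in the synapse lists became 3 with an offset of 16 or with both channels required (GADD45A, TRIM63 and ANKRD1), 6 with processed signals, the series value table, the trend and robust prior or the methods' t-test unadjusted, 4 by the unpaired fit of the channels (no replicate block), 12 with median centring, all higher and MYOG and MYOD1 among them, and 0 with no filter on dim probes (21 at an unadjusted p under 0.05) or by the methods' t-test after Benjamini-Hochberg (12). It was 0 to 0 when an array was left out (13 to 16).

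Median centring moved the median of all probes kept to 0.25, so signs that turned under it need not be changes relative to other genes. They turned for MUSK (-0.23), DTNB (0.16), ERBB3 (-0.020), TEK (0.16), KDR (0.26), MYF5 (-0.040), CXCR4 (0.015), CLCN1 (0.26), STAC3 (0.38), CHRNA4 (-0.23), CHRNA3 (-0.014), CHRNA7 (-0.38), CLU (0.18), HSPA5 (0.31), PDIA3 (0.22), CRK (0.35) and ETV5 (0.11), and for NCAM1 without background subtraction (0.0012) and with processed signals or the series value table (0.060). Leaving out an array turned NCAM1 (-0.066 to 0.010), MUSK (-0.017 to 0.022), MYH3 (-0.19 to 0.54), KDR (-0.28 to 0.20), UCHL1 (-0.33 to 0.19) and ETV5 (-0.18 to 0.036). The slide could not be used as a block, as the arrays lay on 1 slide. The paired ratio is the main fit, so the unpaired fit, with 1091 probes past the test, is the one without the pairing. The signal over background limits CHRNG, which was well above background in HF on 1 of 4 arrays.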

Other observations

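The genes whose array 2 ratio stood farther above the other arrays than that of CHRND were looked up after the values were seen. BARX2, a homeobox factor of muscle development, had ratios of -3.80, 0.25, -2.67 and -2.10 on arrays 1 to 4. AQP4, the water channel of fast muscle fibres, had -1.49, 0.95, -1.19 and -0.56, and PTGR1, a prostaglandin reductase, had -1.45, 1.33, -0.63 and -1.74. GATD3, which was also the gene nearest to CHRND, had -0.64, 1.16, -0.94 and -0.33.

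Among markers of muscle fibres, myoglobin (MB) was higher in LIM with a ratio of 1.02 ± 0.14 (SE, n = 4; limma adjusted p = 0.0325), positive on 4 of 4 arrays, and was the 1 of 8 fibre markers past the test. It was not past it when any 1 of arrays 1 to 4 was left out (0.90 to 1.13). The slow-fibre genes MYH7 and TNNT1 had -1.06 ± 0.32 and -0.87 ± 0.44 (limma adjusted p = 0.116 and 0.276). Without array 1 they were at -0.69 and -0.32, and TNNT1 was above 0 on array 4 (0.15). The other fibre markers were MYH2 at -0.51, DES at -0.38, MYH1 at -0.044, CKM at 0.076 and ACTA1 at 0.55. The median of the 8 was -0.21. Summed fibre markers were 717717 to 794510 in LIM and 650182 to 897443 in HF. Of 6 fibroblast markers 0 passed the test, with a median of 0.39. COL1A1 and COL1A2 were at 1.14 ± 0.39 and 1.29 ± 0.44 (limma adjusted p = 0.145 and 0.139), or at 0.67 and 0.78 without array 3, LUM was at 0.66, THY1 at 0.12, DCN at -0.23 and PDGFRA at -0.27. Of 3 macrophage and 2 endothelial markers 0 passed, with medians of -0.49 and -0.13.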
